A study of Mus musculus with 4 samples.

Results

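The genes described here encode 10 integrin subunits that build receptors for the extracellular matrix: Itga3, Itga5, Itga6, Itga7, Itga9, Itgav, Itgb1, Itgb3, Itgb4 and Itgb5. They were chosen by their names, and all 10 were found among the 14382 genes of the deposited table. The study sequenced polyA RNA of mouse embryonic stem cells (ESCs) with the genotype Arid1a f/f:CreERT2, in which both groups carry the floxed Arid1a alleles and the CreERT2 recombinase. 2 libraries came from cells given ethanol and 2 from cells given 1 µM 4-hydroxytamoxifen (4-OHT) for 24 hours, and the RNA of both groups was taken at 72 hours. The cells grew on irradiated fibroblasts in medium with serum, serum replacement and LIF. 4-OHT activates CreERT2, so the comparison asks how transcripts stand after deletion of Arid1a, which encodes a DNA-binding subunit of BAF, a complex that moves nucleosomes. Neither group was free of the recombinase, and no group without floxed alleles was analysed here, so an effect of 4-OHT or of active Cre and an effect of the deletion cannot be told apart.

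Integrins are paired receptors of 1 alpha and 1 beta chain that span the cell membrane and tie the matrix outside to actin inside. The alpha chain largely sets the ligand. Alpha3, alpha6 and alpha7 with beta1, and alpha6 with beta4, bind laminins, the trimers of basement membranes. Alpha5 with beta1 is the classical fibronectin receptor and recognises the tripeptide RGD, as does alphaV with beta3 or beta5, receptors that bind vitronectin and osteopontin too. Alpha9 with beta1 binds tenascin-C, osteopontin and a splice form of fibronectin. Mouse ESCs adhere through beta1 integrins to laminin and fibronectin, and beta1 is required for the inner cell mass and its basement membrane in the embryo.

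The promoter sequences of 3 members whose level changed are shown first, because Itga5 rose while Itga3 and Itgb5 fell and the bases before their starts can be read side by side. The sequences are from RefSeq (GRCm38.p6, the mm10 build) and run 5′ to 3′ on the strand of the gene, up to the base before the start or the first annotated exon. Capitals mark matches to GGGCGG, the GC box bound by SP and KLF factors, on either strand. The stretches are chr11:95076802-95076964 (minus strand) for Itga3, chr15:103366792-103367041 (minus strand) for Itga5 and chr16:33829415-33829664 (plus strand) for Itgb5.
Itga3: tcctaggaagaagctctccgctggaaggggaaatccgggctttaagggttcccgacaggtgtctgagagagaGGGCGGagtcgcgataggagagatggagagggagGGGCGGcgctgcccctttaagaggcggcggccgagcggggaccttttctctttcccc
Itga5: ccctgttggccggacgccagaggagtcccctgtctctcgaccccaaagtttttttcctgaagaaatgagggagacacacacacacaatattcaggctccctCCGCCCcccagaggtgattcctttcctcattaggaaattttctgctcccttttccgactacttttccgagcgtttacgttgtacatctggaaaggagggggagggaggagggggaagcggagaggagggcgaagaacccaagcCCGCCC
Itgb5: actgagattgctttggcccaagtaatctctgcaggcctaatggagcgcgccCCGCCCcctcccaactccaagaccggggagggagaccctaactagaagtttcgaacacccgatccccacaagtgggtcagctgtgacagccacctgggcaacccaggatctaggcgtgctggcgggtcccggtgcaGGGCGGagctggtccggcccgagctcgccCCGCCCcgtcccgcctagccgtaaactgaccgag
GGGCGG was found 2 times in the 163 bases of Itga3, 2 times in the 250 bases of Itga5 and 3 times in the 250 bases of Itgb5. It was present in 32.7% of 32851 RefSeq promoters over the same 250 bases, and in 18.4% over the bases shown for Itga3. Other motifs were searched on both strands and had 0 matches in these 3 stretches. The AP-1 motif, with the letters TGANTCA, was present in 6.75% of promoters over 250 bases. GGAATG, bound by TEAD factors, was present in 12.6%. For the TATA box, searched as TATAAA, the share was 12.4%. The CCAAT box was found in 33.8%. The GC content was 62.6% for Itga3, 55.6% for Itga5 and 65.2% for Itgb5, against a median of 52.4% over all promoters. Itga6, the other member that rose, has no entry in the promoter table used here. The GC box was present upstream of Itga5, which rose, as well as of both falling genes. Among the members that did not pass, Itgb1 had 1 match and Itgav had 0. Itga9 had 0 in 215 bases, which lie before a start inside the annotated span of the gene. Itgb1 also had 1 match to GGAATG, 7 bases before its start.

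Levels are given as CPM, read counts scaled to the effective size of the library. As the deposited columns carry no replicate numbers, the names A and B only tell apart the libraries within each group. A and B of ethanol are not partners of A and B of 4-OHT. The deposited table holds group means, from which the whole reads of each library were recovered for 14373 genes, with totals of 6171778 to 7012347 reads per library. One read was worth 0.142 to 0.159 CPM, so that the limit set by a count of 0, taken as 3 reads and covering counting error alone, lay at 0.426 to 0.477 CPM. Arid1a stood at 517 and 502 CPM in ethanol and at 241 and 213 CPM with 4-OHT and fell (log2 fold change -1.16, SE 0.066, limma adjusted p = 7.33e-06). Reads of the floxed part were not separated from the rest of the gene. All 10 ESC markers listed, Pou5f1, Nanog and Sox2 among them, had reads in every library, with summed levels of 5254 and 5153 CPM in ethanol and 5411 and 5494 CPM with 4-OHT. Of these, Nanog and Tdgf1 rose, Sox2 and Esrrb fell and 6 did not pass in limma, while DESeq2 did not call Sox2 (adjusted p = 0.0576). Over all genes limma called 5.25% as risen and 4.2% as fallen. The labels do not say that libraries came from separate cultures, so p-values measure the spread between these libraries, which may be technical. The labels name 2 library kits without saying which library had which, so a kit difference between the groups and the treatment cannot be told apart.

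Of the 10 integrin genes, 2 rose with 4-OHT (Itga5 and Itga6), 2 fell (Itga3 and Itgb5) and 6 did not pass the test. The test was limma on log2(CPM + 1) over all genes, with Benjamini-Hochberg adjustment and a threshold of 0.05, and called 9.45% of all genes in either direction, 5.25% as risen and 4.2% as fallen. The changes crossed the ligand classes, as each class held 1 gene that rose and 1 that fell. The median log2 fold change of the 10 genes was 0.20, against -0.0015 over all genes tested. By sign, 6 lay above 0 and 4 below, most of them genes that did not pass. The summed level of the 10 was 1104 and 1076 CPM in ethanol and 1112 and 1129 CPM with 4-OHT. In 9 of the 10 genes the levels of the groups did not overlap, while 52.1% of all genes had groups that do not overlap. The changes of the 4 called members lay between 1.27 and 1.40 times in size. Since RNA was taken from whole cultures, fewer cells of a type and less RNA per cell cannot be told apart.

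**Figure D1:**
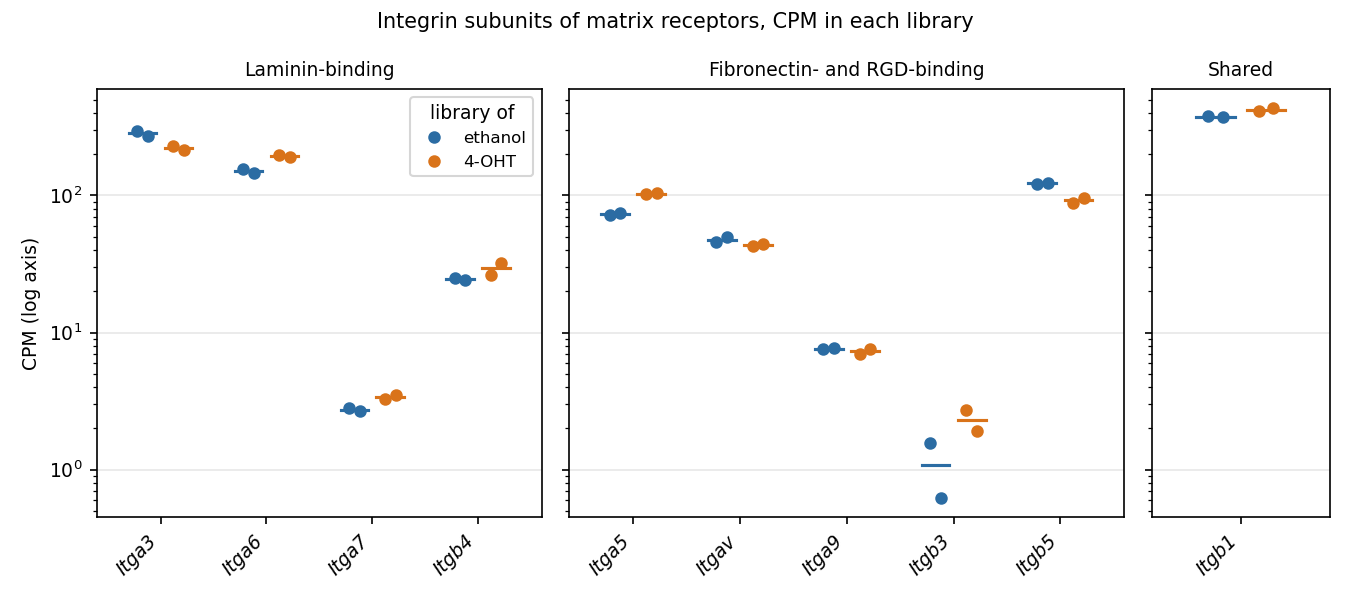
CPM (log axis) of the 10 integrin genes in each library, ethanol in blue and 4-OHT in orange; points are the 2 libraries of a group and lines their mean. Itga6 and Itga5 lie higher with 4-OHT, Itga3 and Itgb5 lower, and Itgb1 has the highest CPM in every library.

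Among the laminin-binding subunits, Itga6 and Itga3 moved in opposite directions. Itga6 encodes the alpha6 chain, which serves both the beta1 and the beta4 receptor (ENSMUSG00000027111, chr2:71745616-71858416, plus strand). It stood at 155 and 147 CPM in ethanol and at 197 and 191 CPM with 4-OHT. Both 4-OHT libraries were higher than both ethanol libraries, and Itga6 rose 1.28-fold (log2 fold change 0.36, SE 0.059, limma adjusted p = 0.00422).

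Itga3 encodes alpha3, a receptor chain for laminins that hold alpha3 or alpha5 chains (ENSMUSG00000001507, chr11:95044474-95076801, minus strand). Its level was 295 and 272 CPM in ethanol and 231 and 216 CPM with 4-OHT. The groups did not overlap, and Itga3 fell to a level 1.27 times lower (log2 fold change -0.34, SE 0.063, limma adjusted p = 0.00694). Without ethanol library A, its higher library, the limma adjusted p was 0.0511 and the log2 fold change stayed negative. The ratio of Itga3 to Itga6 reads within a library went from 1.90 and 1.85 in ethanol to 1.17 and 1.13 with 4-OHT. The difference of its log2 value was -0.71 and needs no scaling between libraries. In the exact permutation test (two-sided, 2 against 2) it had the smallest p this design allows, 0.33, and the pair was chosen after the values were seen.

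Itgb4 encodes beta4, the partner of alpha6 in hemidesmosomes of epithelia (ENSMUSG00000020758, chr11:115974709-116008412, plus strand). Its values were 24.8 and 24.2 CPM in ethanol and 26.3 and 32.4 CPM with 4-OHT. The difference did not pass (log2 fold change 0.24, 95% interval -0.03 to 0.52, limma adjusted p = 0.255). It was 0.39 without 4-OHT library A, where edgeR called it (edgeR adjusted p = 0.0452), and 0.10 without 4-OHT library B. Exons of B230344G16Rik, a lincRNA on the opposite strand, cover 8.41% of its exon bases, and as the use of strand in counting is not given, reads of the pair cannot be told apart there. Itga7 encodes the alpha7 chain best known from muscle (ENSMUSG00000025348, chr10:128933818-128958282, plus strand). It was counted with 18 and 17 reads in ethanol against 23 and 22 after 4-OHT, a ratio of 1.24 with a counting interval of 0.780 to 1.99. It did not pass (limma adjusted p = 0.519), and by counting error alone its reads were compatible with ratios from 0.780, a fall, to 1.99, a rise.

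Among the fibronectin- and RGD-binding subunits, Itga5 rose and Itgb5 fell. Itga5 encodes alpha5, which pairs with beta1 alone (ENSMUSG00000000555, chr15:103344286-103366763, minus strand). It stood at 72.2 and 74.4 CPM in ethanol and at 102 and 104 CPM with 4-OHT. Libraries of a group were close together and the groups far apart, with a rise of 1.40-fold (log2 fold change 0.48, SE 0.066, limma adjusted p = 0.00149).

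Itgb5 encodes beta5, which pairs with alphaV alone and binds vitronectin (ENSMUSG00000022817, chr16:33829665-33949338, plus strand). Its level was 122 and 124 CPM in ethanol and 88.8 and 96.6 CPM with 4-OHT. Both 4-OHT libraries were lower, and the gene fell to a level 1.32 times lower (log2 fold change -0.40, SE 0.067, limma adjusted p = 0.00462). Its partner Itgav (ENSMUSG00000027087, chr2:83724397-83806916, plus strand) had 45.7 and 49.4 CPM in ethanol and 43.1 and 44.5 CPM with 4-OHT. Itgav did not pass (log2 fold change -0.12, 95% interval -0.31 to 0.07, limma adjusted p = 0.457). The ratio of Itgb5 to Itgav CPM, not corrected for length, was 2.66 and 2.50 in the ethanol libraries and 2.06 and 2.17 after 4-OHT.

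Itgb3 encodes beta3, the other alphaV partner here (ENSMUSG00000020689, chr11:104608000-104670476, plus strand), and had the fewest reads of the 10. Ethanol libraries held 10 and 4 of its reads and 4-OHT libraries 19 and 12, a ratio of 2.14 with a counting interval of 1.10 to 4.35. It did not pass (log2 fold change 0.69, limma adjusted p = 0.142), and the gap between groups was 2 reads. Its value depended on single libraries, with a log2 fold change of 1.01 without ethanol library A (limma adjusted p = 0.0362) and of 0.36 without ethanol library B (limma adjusted p = 0.547). Itga9 encodes alpha9, the tenascin-C receptor chain (ENSMUSG00000039115, chr9:118606690-118901003, plus strand). It was counted with 49 reads in both ethanol libraries, and with 49 and 48 after 4-OHT. Its groups overlapped (log2 fold change -0.06, 95% interval -0.43 to 0.32, limma adjusted p = 0.884), and its sign turned without 4-OHT library A (log2 fold change 0.0017).

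Itgb1 encodes beta1, the chain that alpha3, alpha5, alpha6, alpha7 and alpha9 share (ENSMUSG00000025809, chr8:128685654-128733200, plus strand). It stood at 378 and 374 CPM in ethanol and at 412 and 432 CPM with 4-OHT, with groups that did not overlap. The difference did not pass in limma (log2 fold change 0.17, 95% interval 0.05 to 0.28, unadjusted, adjusted p = 0.0878). The quasi-likelihood test of edgeR on the recovered reads called it higher (edgeR adjusted p = 0.0458), as it called 15.8% of 12958 genes (8.13% as higher), and DESeq2 did not (adjusted p = 0.177). Limma also called it among genes with a mean CPM of at least 1 (adjusted p = 0.0460). The edgeR call was lost without ethanol library A (adjusted p = 0.271), ethanol library B (0.316) or 4-OHT library B (0.182).

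The 4 calls rested on both 4-OHT libraries in limma. Without 4-OHT library A the adjusted p of Itga3, Itga5, Itga6 and Itgb5 lay between 0.139 and 0.171, and without library B between 0.137 and 0.205. Limma then called 0 genes of the whole table, with 2504 and 2517 genes at an unadjusted p under 0.05, whereas edgeR called 1586 and 1781. In edgeR all 4 stayed past the threshold without any 1 library, with adjusted p of at most 0.0202.

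The planned contrast of the classes was the log2 ratio of Itga5, the fibronectin receptor chain, to Itga6, a laminin receptor chain, within each library. Itga6 alone stood for its class here, although Itga3, another laminin-binding chain, fell (log2 fold change -0.34). The ratio of Itga5 to Itga3 was not tested. Not corrected for length, Itga5 had 0.466 and 0.506 times the reads of Itga6 in ethanol and 0.517 and 0.542 times with 4-OHT. The groups did not overlap, but the gap between the nearest libraries was smaller than that between the ethanol libraries. The difference of the log2 ratio was 0.13, and the exact permutation test gave p = 0.33 (two-sided), the smallest value that 2 against 2 allows. Both chains rose, Itga5 by 1.40-fold and Itga6 by 1.28-fold, and the difference between these folds was tested by that permutation test alone.

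**Figure D2:**
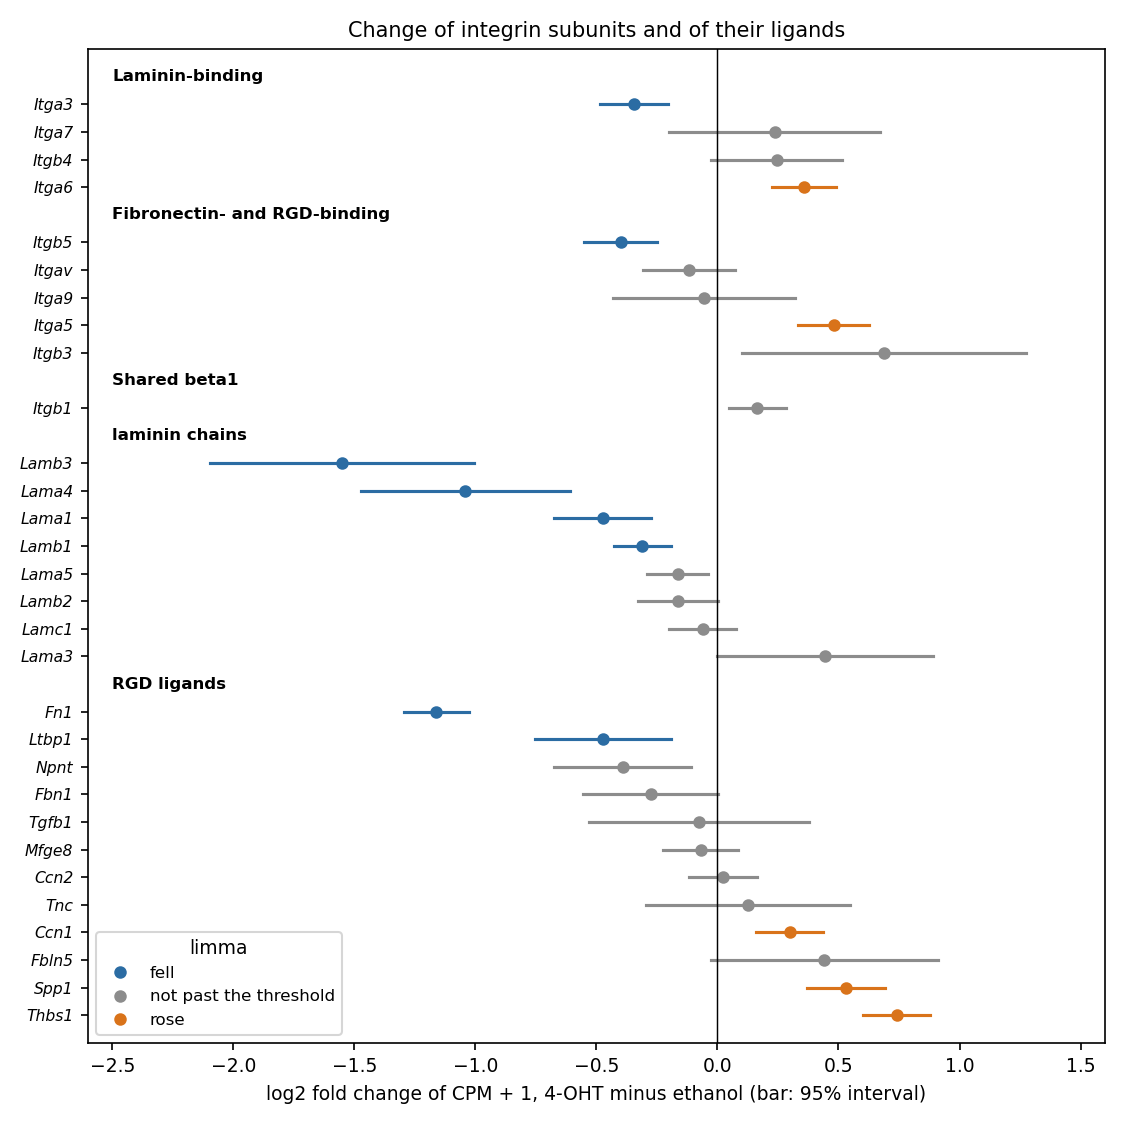
Change of each gene on the log2(CPM + 1) scale, 4-OHT minus ethanol, on the horizontal axis with its unadjusted 95% interval for the 10 integrin genes, 8 laminin chain genes and 12 genes of fibronectin and other RGD ligands; orange rose, blue fell, grey did not pass in limma. Of the called genes, the laminin-binding and the RGD-binding class each have 1 above and 1 below 0, whereas the 4 called laminin chains all lie below 0 and Fn1 lies at -1.16.

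Among the ligands, the laminin chain genes that changed were all lower with 4-OHT. Of 8 laminin chain genes described here, 4 fell (Lama1, Lama4, Lamb1 and Lamb3), 0 rose and 4 did not pass in limma, with a median log2 fold change of -0.24. Limma called 4.2% of all genes as fallen and 5.25% as risen. At an unadjusted p under 0.05, 5 were lower and 0 higher, against 11.4% and 12.5% of all genes. In edgeR 5 were called lower, against 7.64% of genes, and DESeq2 called 3, against 5.21% of 13520 genes in either direction. The limma call that DESeq2 did not make was that of Lama4 (DESeq2 adjusted p = 0.136). All 4 limma calls were lost without either 4-OHT library, as were those of the lists that follow. Lamb3 and Lama3 encode the beta3 and alpha3 chains of laminin-332, a ligand of alpha3beta1 and alpha6beta4. Lamb3 was counted with 91 and 56 reads in the ethanol libraries against 18 and 24 after 4-OHT, and fell (log2 fold change -1.55, SE 0.245, limma adjusted p = 0.0033). Lama3 had 2.32 and 2.18 CPM in ethanol against 3.70 and 3.18 CPM after 4-OHT, which did not pass (limma adjusted p = 0.211).

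Lama5, Lamb1 and Lamc1 form laminin-511 and Lama1, Lamb1 and Lamc1 laminin-111, the forms made by early embryonic cells. Lamb1 fell from 322 ± 2.13 to 260 ± 2.21 CPM (SD, n = 2 per group) and Lama1 from 53.6 ± 2.28 to 38.3 ± 2.92 CPM. Lamc1 stood at 628 and 631 CPM in ethanol and at 638 and 571 CPM with 4-OHT, with groups that overlapped. Lama5 had 795 and 739 CPM in the ethanol libraries and 694 and 673 CPM with 4-OHT. It did not pass in limma (adjusted p = 0.106), while edgeR called it lower (edgeR adjusted p = 0.0375). Lama4, an alpha chain of vessel walls and mesenchyme, fell from 34 and 33 reads to 15 and 12. Lamb2, the beta2 chain, was at 63.5 and 64.6 CPM in ethanol and at 58.3 and 55.9 CPM with 4-OHT and was not past the threshold (limma adjusted p = 0.213). Within laminin-111 the alpha1 and beta1 chain genes thus fell and gamma1 did not pass. Whether chains of a trimer differ in their change was not tested.

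Fn1 encodes fibronectin, the ligand of alpha5beta1, and had the largest log2 fall among the RGD ligands. It stood at 625 and 644 CPM in ethanol and at 297 and 270 CPM with 4-OHT (log2 fold change -1.16, SE 0.061, limma adjusted p = 4.45e-06). Itga5, the alpha chain gene of this receptor, rose while Fn1 fell, and Itgb1, its beta chain gene, did not pass in limma. Not corrected for length, Fn1 had 8.65 times the reads of Itga5 in both ethanol libraries, and 2.92 and 2.60 times with 4-OHT. The difference of the log2 ratio was -1.65 (exact permutation p = 0.33, the smallest possible), and the pair was chosen after the values were seen. Of the 12 measured genes of this list, 3 rose, 2 fell and 7 did not pass, with a median log2 fold change of -0.02. Over all genes limma called 5.25% as risen and 4.2% as fallen. For this list edgeR called 6 and DESeq2 4, against 15.8% and 5.21% of the genes they tested.

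The RGD ligands that rose were Thbs1, Spp1 and Ccn1. Thbs1, which encodes thrombospondin 1, had 126 and 132 CPM in ethanol and 224 and 210 CPM with 4-OHT. Spp1 encodes osteopontin, a ligand of alphaV and alpha9 receptors, and rose from 51.1 ± 0.783 to 74.3 ± 0.0779 CPM. Ccn1, a matricellular protein gene, rose from 188 ± 11.2 to 231 ± 4.12 CPM. Ltbp1, which encodes a TGF-beta binding protein of the matrix, fell from 28.8 ± 1.08 to 20.6 ± 3.04 CPM in limma (adjusted p = 0.0423) but was not called in DESeq2 (adjusted p = 0.213). Among the abundant ligands that did not pass, Ccn2, a matricellular gene like Ccn1, averaged 214 ± 13.0 CPM with ethanol against 218 ± 8.70 CPM after 4-OHT. Mfge8, whose product links alphaV integrins to dying cells, averaged 119 ± 7.48 and 113 ± 5.34 CPM. Fbn1, the fibrillin gene, was at 27.5 ± 3.53 and 22.4 ± 1.84 CPM. Tgfb1 and Fbln5 lay between 0.620 and 2.03 CPM in every library. Without ethanol library B, 3 of the 5 calls of this list stood. Tnc, the tenascin ligand of alpha9, was at 5.11 and 6.40 CPM in ethanol and 6.82 and 5.88 CPM after 4-OHT, with groups that overlapped.

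**Figure D3:**
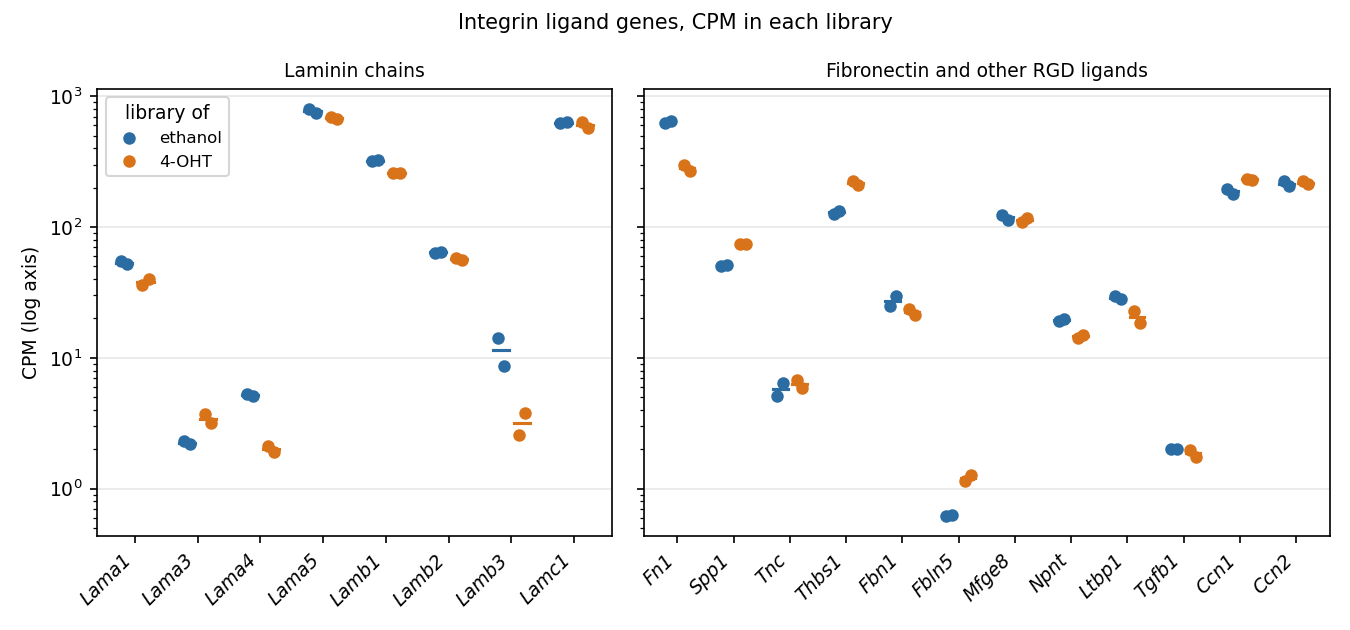
CPM (log axis) of 8 laminin chain genes (left) and of fibronectin and other RGD ligand genes (right) in each library, ethanol in blue and 4-OHT in orange; points are the 2 libraries of a group and lines their mean. Fn1 stands at 625 and 644 CPM in ethanol and at 297 and 270 CPM with 4-OHT, whereas Lamc1 is at 571 CPM or more in every library.

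Levels of different genes were compared as CPM per kilobase of exon, on the union of coding transcripts in the Gencode M21 annotation. Itgb1 was highest, at 98.6 CPM per kb in ethanol and 111 with 4-OHT. In ethanol Itga3 followed at 54.0, then Itgb5 at 36.2, Itga6 at 34.7, Itga5 at 16.7, Itgav at 6.75 and Itgb4 at 3.84 CPM per kb. Itga9 at 1.07, Itga7 at 0.656 and Itgb3 at 0.188 CPM per kb were the lowest. With 4-OHT Itga6, at 45.1 and 43.8 CPM per kb in libraries A and B, and Itga3, at 43.9 and 41.1, overlapped across libraries. Within each 4-OHT library Itga6 was the higher, and within each ethanol library Itga3. Whether their levels differ with 4-OHT was not tested. Itgb5 was at 26.2 and 28.5 and Itga5 at 23.2 and 23.6 CPM per kb, which had come close without overlapping. The 10 other measured subunit genes were at or below 2.69 CPM per kb in ethanol, below the 7 members from Itgb1 to Itgb4. Of these, Itgb7, Itga8, Itgam and Itga1 lay above Itga9, and Itga4, at 0.111 CPM per kb, below Itgb3. The lengths rest on annotation, and unequal use of transcripts could shift such an order.

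**Figure D4:**
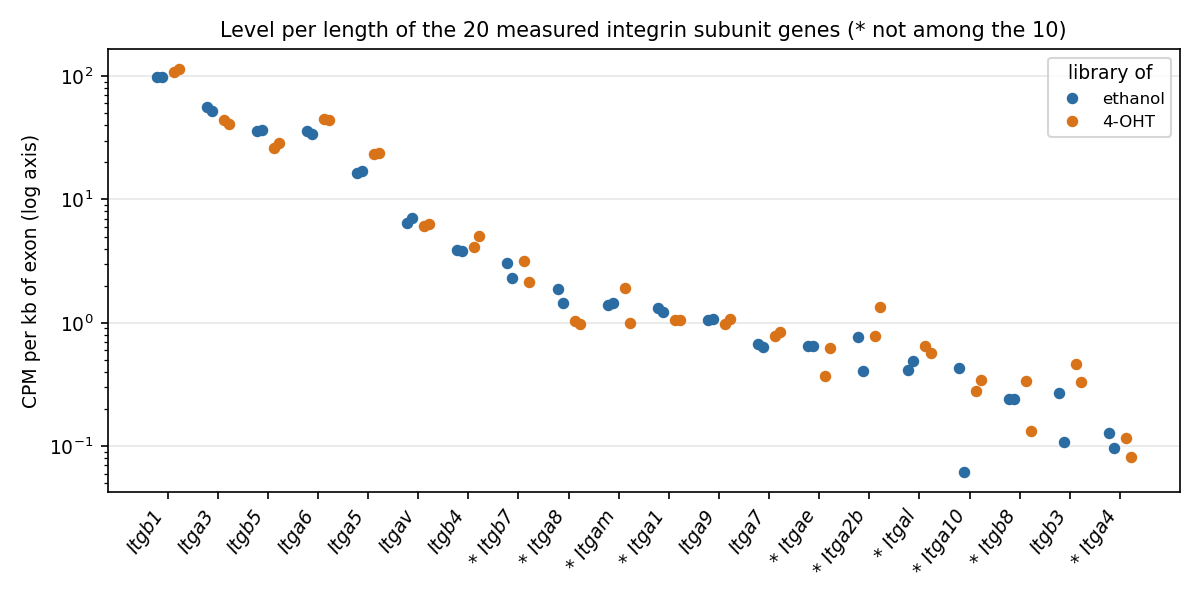
CPM per kilobase of exon (log axis) of the 20 measured integrin subunit genes in each library, ethanol in blue and 4-OHT in orange, ordered by the ethanol mean; an asterisk marks genes outside the 10 members. Itgb1, Itga3, Itgb5, Itga6 and Itga5 have the highest ethanol means, 16.7 CPM per kb or more, and Itga3 and Itga6 meet with 4-OHT.

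Of 10 other integrin subunit genes with a row, 0 passed in limma (median log2 fold change -0.06). At an unadjusted p under 0.05, 1 was higher and 1 lower, shares of 10 genes that lie near the 12.5% and 11.4% over all genes, and DESeq2 called 0. Itga8 encodes alpha8, the beta1 partner that binds nephronectin. Ethanol libraries held 70 and 54 of its reads, and 4-OHT libraries 42 and 36 (limma adjusted p = 0.0602). Of these genes edgeR called Itga8 alone, as lower (edgeR adjusted p = 0.0103). Npnt, which encodes nephronectin, had 19.1 and 19.8 CPM in ethanol and 14.2 and 14.9 CPM with 4-OHT. Npnt showed the same split between tools (limma adjusted p = 0.0874, edgeR adjusted p = 0.0375). Itga2, Itga11, Itgad, Itgax, Itgb2, Itgb6, and among the ligands Lama2, Lamc3, Vtn, Edil3, Fga, Fgb and Fgg, were not analysed here.

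Genes acting at the integrin tails changed in both directions. Of 24 measured activators and adaptors, 3 rose, 5 fell and 16 did not pass, with a median log2 fold change of -0.04. Over all genes limma called 5.25% as risen and 4.2% as fallen. For this list edgeR called 9 and DESeq2 7, against 15.8% and 5.21% of the genes they tested. Parva and Parvb encode the parvins, which link integrin-linked kinase to actin. Parvb fell from 55.7 ± 0.516 to 33.3 ± 0.397 CPM and Parva from 73.4 ± 0.985 to 49.3 ± 1.10 CPM. Fermt1, a kindlin gene whose product helps to activate integrins, fell from 13.8 ± 2.26 to 8.68 ± 0.588 CPM in limma (adjusted p = 0.0465) but not in DESeq2 (adjusted p = 0.257). Nedd9, an adaptor of focal adhesions, had 5.73 and 4.84 CPM in ethanol and 13.5 and 11.8 CPM with 4-OHT and rose (log2 fold change 1.12, limma adjusted p = 0.003). Tln1, the talin that activates integrins, had 447 and 456 CPM in ethanol against 433 and 442 CPM after 4-OHT, a difference that missed the threshold (limma adjusted p = 0.655). Ilk, the kinase-like partner of the parvins, did not pass either (limma adjusted p = 0.371). Without ethanol library B, 5 of the 8 adaptor calls stood in limma.

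Of 6 measured genes listed as integrin inhibitors, Tgm2 rose (5.75 ± 0.0262 against 18.4 ± 1.88 CPM, limma adjusted p = 0.000346), while 5 did not pass (median 0.03). Tgm2 encodes a transglutaminase known as a co-receptor that bridges integrins and fibronectin, not as an inhibitor. Of 8 tetraspanin and hemidesmosome partners, Cd81 was lower (431 ± 9.69 against 335 ± 10.2 CPM, limma adjusted p = 0.00243), while 7 did not pass (median -0.02), among them Cd151, the tetraspanin that binds alpha3 and alpha6 receptors, at 182 and 162 CPM in ethanol and 150 and 171 CPM with 4-OHT. Of 5 non-integrin laminin receptors, Sdc2 fell (29.6 ± 4.09 against 19.7 ± 4.07 CPM, limma adjusted p = 0.0444, DESeq2 adjusted p = 0.111), while 4 did not pass (median -0.06). Dag1, which encodes dystroglycan, had 427 and 418 CPM in ethanol and 461 and 437 CPM with 4-OHT. The counts of these lists stand beside 5.25% of all genes called as risen and 4.2% as fallen in limma.

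The ESCs were kept on irradiated mouse embryonic fibroblasts, which also make integrins, fibronectin and laminins. Of 22 fibroblast markers, 18 were measured, and 0 of them had 0 reads in all libraries. In limma 2 rose and 2 fell, against 5.25% and 4.2% of all genes, and 14 did not pass (median 0.13). The summed level of the 18 was 971 and 940 CPM in ethanol and 834 and 803 CPM with 4-OHT. Tagln, the largest part, fell from 637 ± 17.0 to 475 ± 14.5 CPM. On group means the fall of Tagln was larger than that of the sum. By log2 fold change, 11 of the 18 markers lay above 0 and 7 below. Col1a1 was at 48.0 and 46.3 CPM in ethanol and at 50.7 and 45.9 CPM with 4-OHT, while Col1a2 had 19.7 and 22.0 CPM in ethanol and 47.5 and 42.4 CPM with 4-OHT and rose. Thy1 rose and Col5a2 fell in limma, but DESeq2 called neither (adjusted p = 0.456 and 0.0599). Of 15 extraembryonic endoderm markers, 12 were measured. In limma 1 rose (Sparc) and 0 fell, against 5.25% and 4.2% of all genes, and 11 did not pass (median 0.23). By log2 fold change, 10 lay above 0 and 2 below. At an unadjusted p under 0.05, 4 were higher and 1 lower, against 12.5% and 11.4% of all genes. Of 10 tested in edgeR, 3 were called higher (Sparc, Sox7 and Cubn), against 8.13% of genes, and DESeq2 called 1. The summed levels of the 12 markers were 943 and 887 CPM in ethanol and 1037 and 1052 CPM with 4-OHT. Most of this sum came from Apoe and Sparc. Apoe had 562 and 488 CPM in ethanol and 553 and 616 CPM with 4-OHT, with groups that overlapped. Sparc had 341 and 359 CPM in ethanol and 435 and 391 CPM with 4-OHT. Gata4 and Gata6 lay between 2.34 and 4.34 CPM in all libraries. Other markers with few reads were higher with 4-OHT. Sox7 was counted with 4 and 8 reads in ethanol against 14 and 20 after 4-OHT. Sox17 had 3 and 9 against 10 and 15 reads, and Hnf4a 7 and 2 against 12 and 11. None of these genes passed in limma. The part of either cell type in the integrin and ligand values was not tested.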

How the data were processed

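PolyA RNA-seq of 4 ESC libraries was analysed from 1 deposited table. The submitters' processing notes name mm10 and, as tools, HISAT2, Trimmomatic, FastQC and edgeR. The read counter, annotation and strand setting were not given in the sources used here. Values in the deposited table are group means of CPM, per the file headers. The deposited log2 fold change and adjusted p-value columns were not used, since they are out of register with the genes: with rows sorted by Entrez number as text, the p-value never fell in 14381 steps, and the deposited log2 fold change had a Spearman rho of 0.0159 with the log2 ratio of the means. Each mean is a sum of 2 whole read numbers times 1 step per library. With the steps fitted, 100% of values were whole to the printed digits, and a single pair of reads matched in 99.7% (ethanol) and 99.9% (4-OHT) of genes. Where several matched, the pair within 2-fold was taken, 9 genes were left out (8 in ethanol, 1 with 4-OHT), and 14373 were tested. Recovery and fits were tested on simulated data.

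The main test was limma-trend 3.58.1 (R 4.3.3) on log2(CPM + 1), with no filter. Alternatives were edgeR 4.0.16 and DESeq2 1.42.0 on the recovered reads, size factors of DESeq2, a pseudocount of 0.1, a mean CPM of at least 1 and leaving out each library, the last also in edgeR, which was added after seeing the data. On the recovered reads edgeR called 2043 genes. Intervals of read ratios are exact binomial 95% intervals and cover counting error only.

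Members and lists were chosen with earlier results of these data known. Named genes were Arid1a, all members, the listed laminin chains and RGD ligands, and up to 4 called genes of each other list with the largest change. The other integrin subunits, Tln1, Ilk, Cd151, Dag1, Col1a1, Gata4, Gata6, Sox7, Sox17, Hnf4a, Apoe, Cubn and the ESC markers were named after their values were seen. Ccn1 and Ccn2 were matched through RefSeq by Entrez number. One gene of the ligand lists is not reported here, and list counts, medians and figures leave it out.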

Additional observations from a re-analysis of the deposited data

How the results depend on the processing

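The count of genes called over the whole table was 1358 in limma, 2043 in edgeR and 705 in DESeq2, with 1327 and 703 of the 1358 among the calls of the other tools, and 2035 in limma with a mean CPM of at least 1. The 4 integrin calls stood under every alternative that used all 4 libraries. Leaving out 1 library gave 0 to 1781 calls over all genes, 0 to 6 among the integrin members, 0 to 5 among laminin chains, 0 to 5 among RGD ligands and 0 to 8 among adaptors, where every 0 was limma without a 4-OHT library. The sign of Itga9 turned without 4-OHT library A, to 0.0017 in limma and 0.0019 in edgeR, and its log2 fold change lay between -0.13 and 0.0019 with 1 library left out. The cause was not tested. The median over all genes moved by less than 0.1 (log2) under each scaling. No paired analysis was possible because the deposited columns carry no replicate numbers. Itgb3, Itga7 and Lama3 had under 30 reads in each library, which limits what their values can show.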
